A study of Mus musculus with 2 samples.

Results

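AA467197 (ENSMUSG00000033213), 1 of the 32285 genes counted, was followed through leukocytes of the mouse adrenal gland. The sorted cells, CD45+ and free of the viability dye DAPI, came from adrenal glands of 7-week-old C57Bl/6 mice. Their transcripts were counted cell by cell in droplets, in 1 library for females and 1 for males. No allele or agent is named for either group, both were sorted alike, and the number of animals behind a library was not stated. The gene was singled out because its level in macrophages had already been seen to differ between these libraries, and positive cells were defined by its own unique molecular identifiers (UMIs, the tags that mark single captured transcripts). The values below are therefore descriptions of these 2 libraries. With 1 library per sex, sex and library cannot be told apart, no test was run across animals, and every interval is a 95% interval for counting error only.

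AA467197, also called Nmes1, encodes a small mitochondrial protein related to NDUFA4. NDUFA4 was first assigned to complex I of the respiratory chain and is now regarded as a subunit of complex IV, cytochrome c oxidase, the enzyme that passes electrons to oxygen. In macrophages the AA467197 transcript is known to be induced by inflammatory stimuli, and its protein can take the place of NDUFA4 in complex IV. The same transcript carries the microRNA gene Mir147, and the microRNA of the human counterpart has been described to target the NDUFA4 transcript.

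The gene lies on the forward strand of chromosome 2 at chr2:122636986-122641191 (GRCm38). Its transcript AA467197-201 runs from 122637850 to 122641191 in 5 exons. The last exon, of 491 bases, holds the last 66 coding bases and a 3′ untranslated region of 425 bases. The Mir147 hairpin, at chr2:122640803-122640881, sits inside that untranslated region on the same strand, and no other annotated gene overlaps AA467197. The mature 5′ arm, at chr2:122640814-122640837 on the forward strand, is the arm that the RefSeq table used here gives (GRCm38.p6). It is shown, 5′ to 3′ with the seed (bases 2 to 8) in capitals, because transcript AA467197-201 carries the whole hairpin. The other arm is mmu-miR-147-3p, and which arm the described targeting of NDUFA4 belongs to was not examined here.
mmu-miR-147-5p: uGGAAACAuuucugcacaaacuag
The libraries count polyadenylated transcripts from their 3′ ends, Mir147 was not among the counted features, and nothing here measures the mature microRNA. Counts are per gene, and the annotated transcript AA467197-203 ends at 122640729, before the hairpin.

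**Figure D1:**
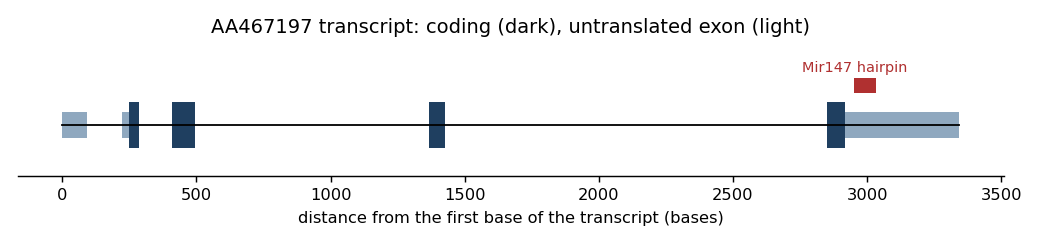
Map of the AA467197 transcript, with the distance from its first base on the horizontal axis in bases. Boxes are exons, dark where coding and light where untranslated, the line is intron, and the bar above marks the Mir147 hairpin, which lies in the untranslated part of the last exon.

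Macrophages were gated as cells with at least 4 UMIs per 1000 from the complement genes C1qa, C1qb and C1qc. This gave 768 of 3694 female cells and 819 of 2449 male cells. The median C1q level was 14.8 UMIs per 1000 in the female and 13.8 in the male gate, and 0 in natural killer (NK) cells of both libraries, while 75 female and 95 male cells lay within 1.5-fold of the cut. Csf1r, the receptor that macrophages need for survival, was detected in 85.2% of gated female and 80.5% of gated male cells, against 4.38% and 3.85% of NK cells. Adgre1, which encodes the macrophage antigen F4/80, was detected in 68.8% and 56.2% of gated cells, against 0.609% and 2.37% of NK cells. Neither gene was used by the gate. The median cell of the gate held 3395 UMIs in the female and 2445 in the male library, 2 barcodes occurred in both libraries, and the median mitochondrial share of the gated cells was 3.14% and 3.11%.

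In C1q-positive macrophages, AA467197 was at 234 CPM (UMIs of the gene per 1000000 UMIs of the class; interval 217 to 252) in the female library and at 30.2 CPM (24.1 to 37.4) in the male library. These levels rest on 697 UMIs in 159 cells and on 83 UMIs in 34 cells. The female level was 7.74-fold the male level (6.15 to 9.83). The macrophage gate held 72.8% of the AA467197 UMIs of all kept female cells and 48.5% of those of all kept male cells.

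The female macrophages held more UMIs per cell, so the level was also compared within bins of UMIs per cell. Among cells with under 2000 UMIs the level was 76.3 CPM in 208 female cells and 9.80 CPM in 345 male cells. Among cells with 2000 to under 4000 UMIs it was 139 CPM in 246 female and 20.6 CPM in 219 male cells, and from 4000 UMIs upward 289 CPM in 314 female and 38.6 CPM in 255 male cells. The female to male ratio was 7.78 (2.61 to 31.3), 6.72 (3.76 to 13.1) and 7.47 (5.79 to 9.79) in these bins, so the ratio was about the same at each depth while the level itself was higher in cells with more UMIs. After a draw of 1000 UMIs from each cell, which left out 72 female and 134 male cells, 13.2% of female macrophages (92 of 696, interval 10.8 to 15.96) and 2.34% of male macrophages (16 of 685, 1.34 to 3.77) held an AA467197 UMI. Without the draw the shares were 20.7% and 4.15%.

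AA467197 was detected in a minority of macrophages, some of them with many UMIs. The share with a UMI was 6.25% in the shallowest and 41.7% in the deepest quartile of the female cells, and 1.95% and 9.80% in those of the male cells, so a cell without a UMI is not shown to lack the transcript. Of the female macrophages, 609 held no UMI, 49 held 1, 24 held 2, 28 held 3 to 4 and 58 held 5 or more. Those 58 cells, 7.55% of the gate, held 72.6% of its AA467197 UMIs, and the highest cell held 25. Of the male macrophages, 785 held no UMI, 22 held 1, 4 held 2, 3 held 3 to 4 and 5 held 5 or more. The 5 highest male cells held 51.8% of the male UMIs, against 14.8% for the 5 highest female cells, so the male level rests on few cells.

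Lyve1-high macrophages were gated by at least 2 of 6 marker genes, of which Lyve1 itself, a hyaluronan receptor, need not be detected. In 71 such female cells AA467197 was at 67.3 CPM (36.8 to 113), with all 14 UMIs in 3 cells, of which 1 held 12. In 141 male cells no UMI was counted, where 3 counts would correspond to 8.22 CPM. The remaining C1q-positive macrophages were at 246 CPM (228 to 265; 697 cells) in the female and 34.8 CPM (27.7 to 43.2; 678 cells) in the male library, a ratio of 7.07 (5.62 to 8.99). The Lyve1-high cells were shallower, with a median of 2195 against 3572 UMIs in the female and 2013 against 2663 in the male library. After the draw of 1000 UMIs, 3.23% of Lyve1-high (0.393 to 11.2) and 14.2% of the other female macrophages (11.6 to 17.2) held a UMI, and 0 of 123 and 2.85% (1.64 to 4.58) of the male ones, where the interval of 0 of 123 reaches 2.95%. Aldh1a2-high macrophages were gated apart from the C1q-positive cells by at least 2 of 5 marker genes, of which Aldh1a2 itself need not be detected. They were at 14.1 CPM (3.83 to 36.0) and 7.37 CPM (1.52 to 21.5), from 4 and 3 UMIs.

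Outside the macrophages, neutrophils were the class with the highest level, and there the libraries did not differ beyond counting error. AA467197 was at 241 CPM (147 to 373; 20 UMIs in 5 of 47 cells) in female and 234 CPM (145 to 357; 21 UMIs in 10 of 51 cells) in male neutrophils, a ratio of 1.03 (0.531 to 2.00). The female macrophages and the neutrophils of both libraries thus had levels whose intervals overlap, and the male macrophages lay below them. Dendritic cells, which present antigen to T cells, were at 49.5 CPM (31.7 to 73.7; 102 cells) and 59.4 CPM (37.7 to 89.2; 77 cells), a ratio of 0.833 (0.451 to 1.55). Nearly all of this came from cells with Cd209a, a gene of conventional type II dendritic cells, at 87.9 CPM (23 UMIs in 63 cells) and 95.9 CPM (20 UMIs in 46 cells). Few cells carried these levels, since 65.2% of the female and 85% of the male UMIs lay in 5 cells, and 1 male cell held 10 of the 20. Cells with Xcr1 or Clec9a, genes of cross-presenting dendritic cells, held 0 UMIs in 30 female and 3 UMIs in 29 male cells. For the female cells 3 counts would correspond to 16.4 CPM.

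NK cells were lower again, at 21.7 CPM (17.4 to 26.9; 821 cells) in the female and 11.1 CPM (6.76 to 17.1; 338 cells) in the male library, a ratio of 1.97 (1.197 to 3.38). Within them, cells with the chemokine gene Xcl1 and without the receptor gene Klra4 held 59 of the 85 female and 18 of the 20 male UMIs. Of 466 such female cells 45 held a UMI (26.04 CPM, 19.8 to 33.6), and of 204 male cells 11 did (15.5 CPM, 9.20 to 24.5). Of the NK cells with Klra4 and without Xcl1, 1 of 118 female and 0 of 45 male cells held a UMI. Their median depth was 3000 and 3149 UMIs, against 4470 and 5283 in the cells with Xcl1. This division of NK cells and of dendritic cells was chosen after the data had been examined. Classical monocytes, which express Ly6c2, were at 25.3 CPM (16.2 to 37.6), with 12 of 24 UMIs in 1 cell, in the female and 10.3 CPM (2.81 to 26.4), with all 4 UMIs in 1 cell, in the male library. Nonclassical monocytes held 3 and 1 UMIs.

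T cells and B cells, which are not known for this gene, were used as the classes for comparison. The design had also counted NK cells among the classes that should lack the gene. Their levels, given above, were 21.7 CPM in the female and 11.1 CPM in the male library. Free RNA was not measured here, and its part in their values was not tested. T cells were at 4.51 CPM (2.52 to 7.44) and 6.03 CPM (2.89 to 11.1), and B cells at 8.41 CPM (4.60 to 14.1), with 7 of 14 UMIs in 1 cell, and at 0 UMIs, where 3 counts correspond to 4.35 CPM. After the draw of 1000 UMIs, 0.408% of female and 0.504% of male T cells held a UMI. The female macrophages stood far above these classes. In the male library the macrophage share after the draw (1.34 to 3.77%) overlapped the interval of the T cells (0.0611 to 1.81%), whose median depth was 3763 UMIs against 2445, but the CPM intervals did not overlap. The same held against male NK cells, whose share after the draw had an interval of 0.324 to 3.01%. Endothelial cells held no UMI in 38 female and 40 male cells. Monocytes other than the female classical ones, Aldh1a2-high macrophages and innate lymphoid cells (4.86 and 14.8 CPM, from 1 and 2 UMIs) were not distinguishable from T cells at this depth. The CPM interval of female classical monocytes lay above that of female T cells, but with 12 of 24 UMIs in 1 cell their share after the draw (1.34%, 0.277 to 3.86) overlapped that of the T cells (0.0841 to 1.19%), so they were not set apart either. Nor were male NK cells, whose CPM interval (6.76 to 17.1) and share after the draw (1.19%, 0.324 to 3.01) overlap those of male T cells. In female NK cells the share after the draw (1.97%, 1.13 to 3.18) also overlapped that of the T cells. So did that of male dendritic cells (2.67%, 0.325 to 9.30), where 10 of 23 UMIs lay in 1 cell. These classes lay above the T cells by their CPM intervals only. Cells with C1q beside lymphoid genes, which were set aside as mixed, held 40 UMIs in 73 female and 0 in 41 male cells. Cells with markers of other pairs of classes were not set aside. Cells without a class held 31 UMIs in 75 female and 2 in 83 male cells.

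**Figure D2:**
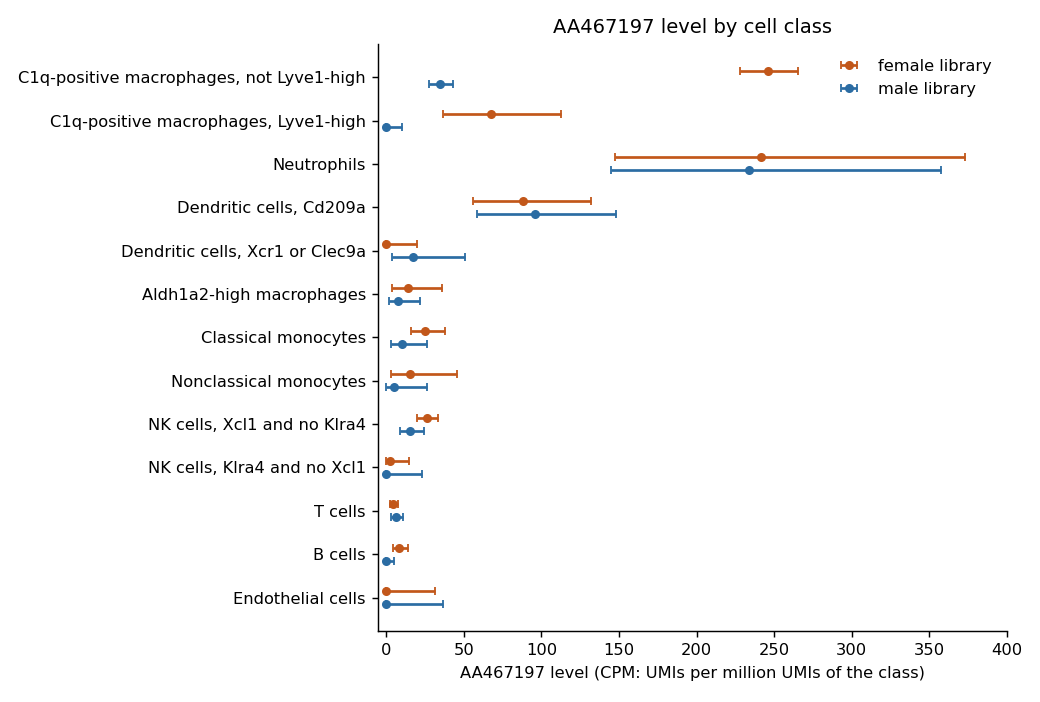
AA467197 level in CPM on the horizontal axis by cell class, with points for the female and male library and bars for exact Poisson 95% intervals. The libraries lie apart in C1q-positive macrophages (246 against 34.8 CPM without the Lyve1-high cells), and their intervals overlap in neutrophils (241 and 234 CPM) and Cd209a dendritic cells (87.9 and 95.9 CPM, where 1 male cell held 10 of 20 UMIs).

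Adrenal macrophages differ in MHC class II, the molecules that present peptides to CD4 T cells, and AA467197 was set beside that level. The class II level of a cell was its number of UMIs of Cd74, H2-Eb1, H2-Ab1 and H2-Aa in a draw of 1000, and cells with 10 or fewer were called low. In the female library AA467197 was at 512 CPM (462 to 565) in 173 class II low macrophages and at 141 CPM (126 to 158) in 523 class II high macrophages, a ratio of 3.62 (3.11 to 4.22). In male macrophages it was at 0 UMIs in 58 class II low cells, where 3 counts correspond to 16.9 CPM, and at 33.1 CPM (26.3 to 41.1) in 627 class II high cells. The interval of the male low to high ratio, 0 to 0.641, excludes 1 on the other side from the female one, but without the Lyve1-high cells it was 0 to 1.25, which includes 1. Female class II high cells were thus 4.27-fold above male ones (3.33 to 5.51), and female class II low cells at least 30.3-fold above male ones, with the 3 counts taken over all male low cells. Without the Lyve1-high cells only 22 male class II low cells remained, and that bound was 14.8-fold. The median depth of class II low cells was 4105 UMIs in the female and 2132.5 in the male library, and the part of depth in these bounds was not tested.

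Read the other way, 43.7% of female AA467197-positive macrophages were class II low (69 of 158, 35.8 to 51.8), against 19.3% of negative ones (104 of 538, 16.1 to 22.9). The median positive cell held 16 class II UMIs per 1000 and the median negative cell 41. Of male macrophages, 0 of 33 positive and 58 of 652 negative macrophages (8.90%) were class II low, with medians of 62 and 49. The 95% interval of 0 of 33 reaches 10.6%, so a difference between the male shares of cells was not detectable.

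**Figure D3:**
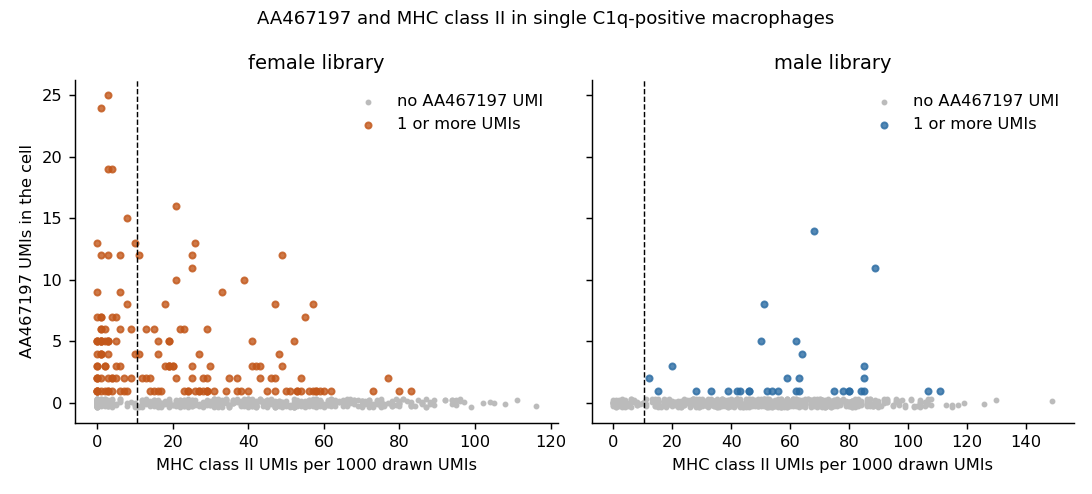
Each point is 1 C1q-positive macrophage of at least 1000 UMIs, with MHC class II UMIs per 1000 drawn UMIs on the horizontal axis and AA467197 UMIs in the cell on the vertical axis; grey cells hold none and are spread around 0 for visibility. In the female library the 4 highest cells (up to 25 UMIs) lie left of the dashed boundary at 10 and cells right of it hold up to 16, while all plotted positive male cells lie right of it.

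The genes that differ with AA467197 were sought by pairing each positive macrophage with the negative macrophage of the same library nearest in depth. The female contrast held 159 positive cells (median 5285 UMIs) and 159 negative cells (median 5272), and the male contrast 34 and 34 (5558 and 5533). Without pairing, the negative cells had medians of 2911 and 2371 UMIs. The median mitochondrial share was 2.77% in positive and 3.23% in negative female cells, and 3.16% and 3.44% in male cells. Lyve1-high cells made up 3 of the positive and 14 of the negative female cells, and 0 and 3 of the male cells. Genes with at least 50 UMIs in the paired cells were considered, and differences are positive minus negative on the log2(CPM + 10) scale, which understates those of low genes. Of 4436 genes in the female library, 147 (3.31%) were past 1.5-fold higher in positive cells and 165 (3.72%) past 1.5-fold lower. Of 1087 genes in the male library, 49 (4.51%) were past it higher and 101 (9.29%) lower. Since positive cells were picked by 1 gene in the same cells, these counts describe the cells and show no more.

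Ndufa4, the relative of AA467197 in complex IV, was lower in the positive female macrophages. It was at 189 CPM (167 UMIs) in positive and 331 CPM (286 UMIs) in paired negative cells, a ratio of 0.571 (0.469 to 0.693), or a log2 difference of -0.78. Male macrophages had it at 295 CPM (58 UMIs) and 352 CPM (68 UMIs), a ratio of 0.839 (0.580 to 1.21), an interval that includes 1. The female level was 331 CPM (294 to 372) in paired cells without AA467197, 227 CPM (170 to 298) with 1 UMI, 176 CPM (130 to 233) with 2 to 4 UMIs and 175 CPM (135 to 223) with 5 or more. The male levels at the same steps were 352, 302, 339 and 226 CPM, the last from 9 UMIs in 5 cells, and their intervals overlap.

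The lower Ndufa4 was seen within class II high cells as well. There it was at 208 CPM in positive and 383 CPM in negative female cells, a ratio of 0.544 (0.437 to 0.672), and at 296 and 395 CPM in male cells, a ratio of 0.750 (0.565 to 0.979). In female class II low cells it was at 166 and 219 CPM, a ratio of 0.759 (0.539 to 1.07). These strata were not matched in depth. With pairing on depth and class II together the ratio was 0.591 (0.483 to 0.721) in the female and 0.666 (0.468 to 0.941) in the male library.

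Of 15 genes of the complex IV list considered, Ndufa4 alone was past 1.5-fold in the female library, and 0 were in the male library. A count of 1 of 15 is near the share of all genes past the fold there (3.72% lower and 3.31% higher), so the count itself sets the list apart in neither library. The list's median log2 difference was 0.01 and 0.02, beside 0.04 and 0.02 over all genes considered. Cox4i1, a nuclear-encoded core-associated subunit, differed by -0.02 and -0.07, Cox6c by 0.10 and 0.12, and Cox5a by 0.17 and 0.09. Cox7b differed by 0.03 in the female and by -0.57 in the male library, where it was at 50 against 74 UMIs, a ratio of 0.664 (0.454 to 0.964), further from 1 than that of Ndufa4. The mitochondrially encoded subunits mt-Co1, mt-Co2 and mt-Co3 differed by -0.18, -0.32 and -0.25 in the female and by -0.13, -0.09 and -0.04 in the male library, and the female mt-Co2 ratio was 0.799 (0.761 to 0.838). Among the genes of the other respiratory complexes, Ndufb9 of complex I was past the fold higher in the male library (53 against 31 UMIs, 0.71).

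NK cells, which the design had counted among the classes that should lack AA467197, gave a second setting for the pair of genes. Among NK cells with Xcl1 and without Klra4, Ndufa4 was at 412 CPM in 45 positive and 745 CPM in 45 depth-matched negative female cells, a ratio of 0.553 (0.428 to 0.711). In male cells it was at 489 CPM in 11 positive and 771 CPM in 11 negative cells, a ratio of 0.634 (0.419 to 0.949). The AA467197 level of this male class overlapped that of T cells. For the female class the CPM interval lay above that of T cells, but the share after the draw (1.95%, 0.895 to 3.67) overlapped theirs. The part of free RNA in either class was not tested. In the same cells Cox4i1 had ratios of 1.08 (0.882 to 1.32) and 1.42 (0.983 to 2.08), Cox6c 1.03 (0.843 to 1.26) and 1.22 (0.870 to 1.70), and the complex I gene Ndufa2 1.01 (0.762 to 1.34) and 1.02 (0.583 to 1.77). Itga1, a gene of tissue-resident innate lymphoid cells of the NK type, was 2.57-fold higher in the positive female cells (1.77 to 3.81) and at 0.561 (0.307 to 0.998) in the male ones. When only cells with Itga1 were paired, the Ndufa4 ratio was 0.464 (0.342 to 0.624) in 34 female pairs and 0.749 (0.464 to 1.199) in 7 male pairs. The macrophage genes C1qa and C1qc were at 8 and 3 UMIs in the positive and 8 and 6 UMIs in the negative female NK cells, and C1qb at 12 and 4. Lyz2, a lysozyme gene of myeloid cells, was at 31 and 16 UMIs, and the part of mixed droplets in these values was not tested.

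In the smaller classes Ndufa4 could not be resolved. The positive to negative ratio was 0.694 (0.343 to 1.37; 13 pairs) in female and 0.781 (0.321 to 1.85; 10 pairs) in male dendritic cells, and 1.16 (0.732 to 1.83; 13 pairs) and 0.790 (0.458 to 1.35; 7 pairs) in T cells. Neutrophils, the class outside the macrophages with most AA467197, had Ndufa4 at 133 CPM (66.3 to 238; 11 UMIs) and 156 CPM (85.2 to 262; 14 UMIs), against 681 and 668 CPM in NK cells. The positive to negative ratio within neutrophils was 1.02 (0.117 to 12.2; 5 pairs) in the female and 4.89 (0.593 to 225; 10 pairs) in the male library. Neutrophils were also lower than NK cells in the complex IV subunits Cox6c (314 and 267 against 835 and 820 CPM) and Cox5a (169 and 223 against 409 and 395 CPM), so a low level there was not particular to Ndufa4. Cox4i1 was less far apart, at 531 and 646 against 831 and 800 CPM. In proportion the gap was widest for Ndufa4 among these genes.

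**Figure D4:**
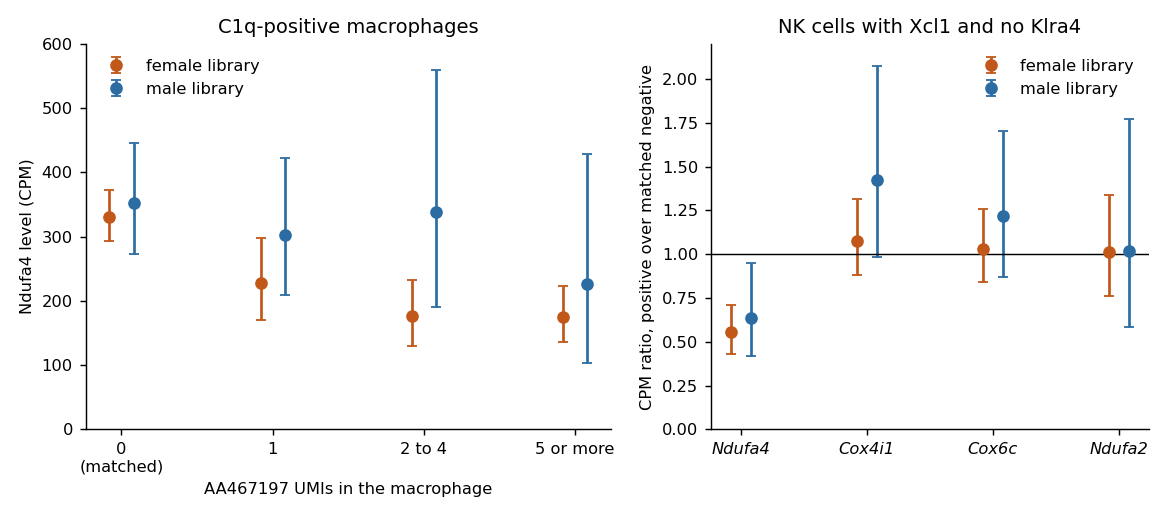
Left, Ndufa4 level in CPM (exact Poisson 95% intervals) of C1q-positive macrophages grouped by the number of AA467197 UMIs in the cell; it goes from 331 CPM without to 175 CPM with 5 or more in the female library. Right, ratio of CPM between positive and depth-matched negative NK cells with Xcl1 and without Klra4 (exact 95% intervals), for Ndufa4 and 3 other respiratory chain genes. Only the Ndufa4 intervals, around 0.553 and 0.634, lie wholly below 1.

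MHC class II genes followed the class II levels given above. In the female library 6 of 7 considered were past 1.5-fold lower in positive cells and 0 higher, beside 3.72% and 3.31% of all genes, with a median log2 difference of -1.15. H2-Aa was at 3804 CPM in positive and 8479 CPM in negative cells (-1.15), Cd74, the invariant chain, at 10733 and 18876 CPM (-0.81), and Ciita, the transactivator of these genes, at 44 and 107 UMIs (-1.16). In the male library 0 of 7 were past the fold, with a median of 0.19, and H2-Aa differed by 0.19, Cd74 by 0.28 and Ciita by 0.08. The UMIs of the 4 genes used for the class II level had a positive to negative ratio of 0.494 (0.486 to 0.503) in the female and 1.18 (1.15 to 1.22) in the male library.

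Among the 12 genes highest in positive female cells, Chil3, a chitinase-like protein of monocytes and neutrophils, led with 241 against 54 UMIs (1.96), of which 70.1% lay in 5 cells. The next were Plp2, a small membrane protein (45 against 9 UMIs, 1.58), and Ets2, a transcription factor of the ETS family (65 against 19 UMIs in 45 and 17 cells, 1.38). Hspa1a, a heat shock protein, differed by 1.38, with 50% of the positive cells' UMIs in 5 cells, Dpep2, a membrane dipeptidase, by 1.32, and Pdlim7, a scaffold of the actin cytoskeleton, by 1.25 (100 against 36 UMIs). Ly6a, a surface antigen induced by interferons, was at 512 against 210 UMIs (1.22), the orphan receptor gene Gpr141 at 169 against 67 (1.2) and Pmepa1, an inhibitor of transforming growth factor β signalling, at 416 against 176 UMIs in 119 and 71 of 159 cells (1.17). Alox5, which makes the precursor of leukotrienes, differed by 1.18, the ganglioside sialyltransferase gene St3gal5 by 1.09 and the RNA-binding protein gene Cpeb2 by 1.06. S100a8 and S100a9, the calprotectin genes of neutrophils, had larger differences (4.01 and 3.54) but lay in 8 and 9 positive cells, under the minimum of 10, with 98.7% and 98.4% of their UMIs in 5 cells.

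In the male library 6 of these 12 genes (50%) were also higher in positive cells, beside 54.8% of the 1087 genes considered in both libraries that had the same sign in both, and only Pmepa1 had the 50 UMIs to be considered, at 83 against 52 UMIs (0.63). Pdlim7 was at 18 against 3 UMIs, a ratio of 5.90 (1.72 to 31.3), and Ets2 at 9 against 2, a ratio of 4.42 (0.916 to 42.1). Plp2, St3gal5 and Chil3 rested on 5, 8 and 1 male UMIs. Ly6a (3 against 8 UMIs), Gpr141 (13 against 19) and Cpeb2 (1 against 8) were lower in positive male cells, so the genes that accompanied AA467197 upward were for the most part not resolved in the male library.

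The 12 lowest genes were lower in positive cells of both libraries, beside the same 54.8% over all genes considered in both. Fn1, fibronectin, was at 11 against 219 UMIs in the female (-3.55) and 16 against 167 UMIs in the male library (-3.26), although 91.3% of the female negative UMIs lay in 5 cells. Retnla, a secreted protein of alternatively activated macrophages, was at 198 against 1988 UMIs (-3.30) and 350 against 463 UMIs (-0.43), and Lyz1 at 21 against 196 (-2.81) and 27 against 91 (-1.71). Pf4, a platelet-type chemokine that resident macrophages express, was spread over more cells, at 111 against 452 UMIs in 55 and 79 cells (-1.98) and 23 against 94 UMIs (-1.97). Pltp, a phospholipid transfer protein, differed by -2.04 and -1.44, and Fcrls, an Fc receptor-like gene of microglia and other resident macrophages, by -1.98 and -2.03. Of the 6 genes with 50 male UMIs, 5 were past 1.5-fold lower in the male library too, all but Retnla, beside 20 of 1087 genes past the fold the same way in both libraries. Few male cells carried these values, since 5 of the 34 negative cells held 92.1% of the Pltp, 88.1% of the Fcrls and all of the Fn1 and Lyz1 negative UMIs. The male values of Fn1 and Lyz1 were not stable, since with a stricter C1q gate they were 3.19 and 3.88 and male Lyz1 was above 0 under 4 alternatives in all.

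The other 6 of the lowest genes had fewer than 50 male UMIs. They were Ccl24, an eotaxin (-2.78), Cfp, properdin (-2.47), Cd163, the receptor for haptoglobin-bound haemoglobin (-2.32), H2-M2 (-2.04), Cbr2, a carbonyl reductase (-2.04), and Folr2, a folate receptor (-1.97). Cd163 was at 0 against 14 and Folr2 at 0 against 18 male UMIs, at least 4.75-fold and 6.10-fold lower with 3 counts over the positive cells. All of the 4 Lyve1-high marker genes considered in the female library (Folr2, Cbr2, Cd163 and Mrc1) were past 1.5-fold lower in positive cells. So were all of the 3 Aldh1a2-high marker genes (Retnla, Fn1 and Lyz1), beside 3.72% of all genes lower. In the male library 1 of 1 Lyve1-high and 2 of 3 Aldh1a2-high marker genes were past the fold lower, beside 9.29% of all genes. The summed level of the 8 Lyve1-high markers was 231 CPM in positive and 628 CPM in negative female cells, and 173 and 637 CPM in male cells. The summed level of the 5 Aldh1a2-high markers was 267 and 2821 CPM in female and 2066 and 3888 CPM in male cells. These sums rest on few cells, since 74.7% of the negative cells' Retnla UMIs in the female and 97.2% in the male library lay in 5 cells, and 82.1% and 100% of those of Lyz1.

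**Figure D5:**
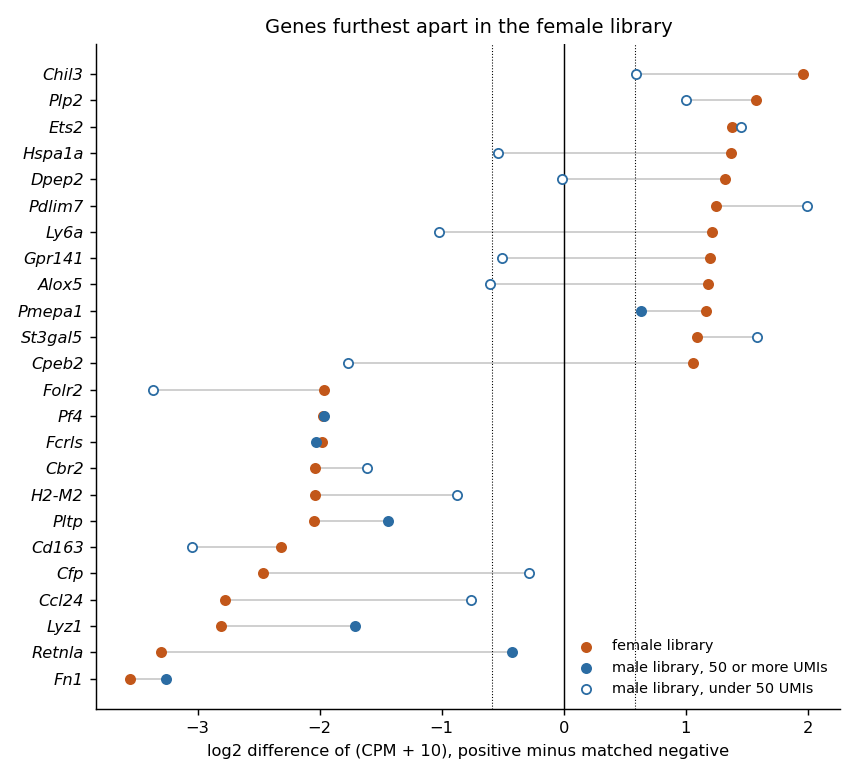
Log2 difference of (CPM + 10) between AA467197-positive and depth-matched negative macrophages for the 12 highest and 12 lowest genes of the female library, with the male value beside each; open points have fewer than 50 male UMIs and dotted lines mark 1.5-fold. All 12 lowest genes have male values below 0, and 6 of the 12 highest have male values above 0.

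The counts of the gene lists that follow stand beside the shares of all genes past the fold, 3.72% lower and 3.31% higher in the female and 9.29% lower and 4.51% higher in the male library, and beside medians over all genes of 0.04 and 0.02. Of 5 genes of alternative activation considered in the female library, Chil3 was past 1.5-fold higher and Retnla, Ccl24, Cd163 and the mannose receptor gene Mrc1 (162 against 263 UMIs, -0.70) lower. Of 12 inflammatory targets of NF-κB considered in the female library, Cxcl2 and Ccl3, chemokines for neutrophils and for monocytes, were past 1.5-fold higher (172 against 85 UMIs, 0.92, and 160 against 74 UMIs, 1.0), with 82.0% and 59.4% of the positive cells' UMIs in 5 cells. Icam1, Nfkbiz and the acute-phase gene Saa3 (0 against 93 UMIs, all in 2 negative cells) were past it lower, and Il1b was at 130 against 186 UMIs (-0.52). The list's female median was -0.06. In the male library 1 of 3, Nfkbia (0.80), was higher. Of 8 glucocorticoid-induced genes, Fkbp5 (216 against 113 UMIs, 0.85), Ddit4 (211 against 107, 0.89) and Klf9 (105 against 47, 1.0), which respond to the hormone that the adrenal cortex makes, were past the fold higher in the female library, Cd163 was lower, and the median was 0.44. In the male library Tsc22d3 alone was considered, at 26 against 42 UMIs (-0.68), and Fkbp5, Ddit4 and Klf9 were at 11 against 13, 14 against 18 and 3 against 8 UMIs.

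Of 16 lipid-associated macrophage genes, 5 were past the fold lower in the female library (Lpl, Fabp5, Lipa, Abca1 and Abcg1, which handle lipid uptake, lysosomal hydrolysis and cholesterol efflux) and 0 higher, beside 3.72% of all genes lower. The list's median was -0.03, close to the 0.04 of all genes. Apoe and Trem2 of the same list differed by 0.07 and 0.18. Among male cells Cd9, a tetraspanin, was higher (63 against 15 UMIs, 1.92) and Fabp4 lower (21 against 89, -2.01), where the female values were 0.38 and 0.55. Of 9 microglia-linked genes Tmem119 was past the fold higher in female cells (137 against 82 UMIs, 0.65), and Fcrls and Gpr34 were lower, with a list median of 0.18. Immediate early genes, which respond within minutes to stimulation or to tissue dissociation, were past the fold lower in 6 of 8 in the male library (beside 9.29% of all genes; median -1.02, with Fos at 12 against 55 UMIs) and in 2 of 12 in the female library (beside 3.72%; median -0.26, with Fos at 89 against 143). In the male library 89.1% of the Fos and 87.7% of the Junb negative UMIs lay in 5 of 34 cells, and Fos was detected in 8 positive and 11 negative cells. Of 8 myeloid transcription factor genes considered in the female library, 1 was past the fold lower and 0 higher, with a median of -0.04. In the male library 2 of 6 were past it lower and 1 higher, with a median of 0.48. Within this list Maf, a transcription factor of resident macrophages, was lower in both, at 375 against 567 UMIs (-0.62) and 52 against 137 UMIs (-1.39). F13a1, a coagulation factor gene of monocytes and macrophages, was at 3 against 41 UMIs in the male and 132 against 157 in the female library.

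Complement genes used in the gate did not part the cells, with C1qa at 0.07 and 0.02 and C1qb at -0.04 and 0.17, and of 9 complement-related genes Cfp and Itgax were past the fold lower in the female library. Interferon-stimulated genes were past the fold in 0 of 6 in the female library. In the male library 1 of 3 was past it lower and 0 higher, beside 9.29% of all genes lower, with a median of -0.26. Cell cycle genes were within the fold in 3 of 3 female genes, and Stmn1 was higher in the male library (58 against 20 UMIs, 1.43), with all 58 UMIs in 5 cells. Of markers of other cells, 0 of 6 adrenal cortex genes considered were past the fold in the female library, with summed levels of 304 and 308 CPM in positive and negative cells and of 265 and 342 CPM in the male library. X-zone, medulla and red blood cell genes never reached 50 UMIs, with summed levels of at most 27.2 CPM. The summed level of 6 neutrophil markers was 628 CPM in positive and 67.2 CPM in negative female cells, and 45.8 and 67.3 CPM in male cells. Without the cells that held an S100a8 or S100a9 UMI, the Ndufa4 ratio was 0.542 in 144 female pairs and 0.836 in 32 male pairs, and the class II ratio 0.486 and 1.23. The summed levels of NK, T and B cell markers were 27.2, 24.9 and 354 CPM in positive and 22.0, 18.5 and 257 CPM in negative female cells.

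Across 23 units, each a class of 1 library with at least 20 cells, the 6 genes with the level pattern most like that of AA467197 among 11273 genes were 0610040J01Rik (Pearson r = 0.84, from 91 UMIs), Siglece (0.84), Clec5a (0.81), Hk3 (0.81), Cd33 (0.80) and Jaml (0.78). Siglece and Cd33 encode sialic acid-binding receptors of myeloid cells, Clec5a a myeloid lectin, Hk3 a hexokinase of myeloid cells and Jaml a junctional adhesion molecule. Units of the same library share depth and free RNA, and r is given as a description. Siglece was at 166 CPM in female and 150 CPM in male C1q-positive macrophages, Cd33 at 182 and 182 CPM and Clec5a at 76.7 and 66.2 CPM, without the 7.74-fold difference between the libraries that AA467197 has. Cd33 and Siglece were higher in neutrophils than in macrophages, at 869 and 374 CPM in the female library. Ndufa4 had r = -0.67 over the same units and was at 301 CPM in female and 380 CPM in male C1q-positive macrophages.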

How the data were processed

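The 2 libraries were described by the authors as 10x 3′ libraries of sorted CD45+ cells, read with Cell Ranger 4.0.0 against mm10, with low-quality barcodes removed by DropletUtils 1.4.3. The deposited values are raw counts (UMIs per gene and barcode): 16218309 in 3963 female and 9512670 in 2685 male barcodes. Barcodes with at least 200 genes and at most 15% mitochondrial UMIs were kept. The ceiling of 1.2% described by the study was tried as an alternative. Doublets were scored with Scrublet in scanpy 1.11.5, whose caller marked 1 female and 8 male barcodes, so the top 3.17% and 2.15% were removed instead, leaving 3694 and 2449 cells. Classes were gated on marker genes, needing at least 2 markers. A dendritic cell could also pass on 2 UMIs of a single gene among Xcr1, Clec9a, Cd209a, Flt3, Ccl22 and Ccr7. Classical monocytes, innate lymphoid cells and plasma cells also needed a UMI from a fixed subset of their markers. C1q-positive macrophages needed at least 3 C1q UMIs from 2 genes, and cells with 2 or more lymphoid UMIs beside C1q were set aside as mixed, as were lymphoid cells with 1 or more C1q UMIs per 1000. The gene, its lists and the comparisons were chosen with earlier results of these data known, and the gates were adjusted after the data had been examined.

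CPM carry exact Poisson, shares Clopper-Pearson and ratios exact conditional binomial intervals of 95%, for counting error only, and a count of 0 was given a floor of 3 counts. In the positive against negative comparison 10 CPM was added before log2. The named genes were AA467197, the 12 highest and 12 lowest in the female comparison among genes with at least 50 UMIs and 10 cells, the 6 of most similar pattern, and members of the fixed lists. Pairing and contrast were tested on simulated data. Alternatives changed the ceiling, doublet removal, C1q gate, draw, class II boundary, pairing, positive definition, added CPM and UMI minimum. Some genes of the lists are not reported here.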

Additional observations from a re-analysis of the deposited data

Results flagged for a closer look

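The UMIs of the 4 MHC class II genes had a ratio of 0.494 (0.486 to 0.503) between AA467197-positive and depth-matched negative macrophages in the female library and of 1.18 (1.15 to 1.22) in the male library. The libraries lay on opposite sides of 1, with 159 and 34 pairs of cells and 1 library each, and the difference between the libraries was not tested. The male ratio was 0.962 when positive meant 2 or more UMIs, which left 12 pairs.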

How the results depend on the processing

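Of 156 values of the main results recomputed under an alternative, 107 stayed within the main interval or within 1.5-fold of the main count, 46 moved further and 3 reversed. AA467197 stayed higher in female than in male macrophages, and Ndufa4 lower in positive than in negative macrophages, under each alternative run. The 1.2% mitochondrial ceiling left 6 female and 2 male pairs, too few for the comparison between cells. Under it the female share was 10.3%, the male share 0% and the male level 14.9 CPM, with a female to male ratio of 15.8 and a class II low to high ratio of 1.46. It gave 16 higher and 17 lower female genes, 30 and 6 male genes, class II ratios of 0.265 and 0.718 and Ndufa4 ratios of 0.153 and 0.335. Female log2 differences turned sign for Chil3 (-6.39), Plp2 (-2.16), Ets2 (-2.99), Hspa1a (-0.0059), Cpeb2 (-2.16), Lyz1 (3.88) and Cbr2 (2.15), and the male one for Pf4 (4.33). A 5% ceiling gave 263 CPM in female macrophages and a class II low to high ratio of 2.87, and a class II boundary of 5 gave 2.88. Without the draw the shares were 20.7% and 4.15%, and with 2000 UMIs drawn the female share was 19.1%. The stricter C1q gate gave 66 lower male genes, a male class II ratio of 1.12, and male differences of 3.19 for Fn1 and 3.88 for Lyz1. Without pairing, where more genes reach 50 UMIs, 347 female genes were lower and 344 and 1265 male genes higher and lower, with Lyz1 at 0.11 in the male library. With every cell thinned to 2000 UMIs there were 270 and 631 male genes, and the female Ndufa4 ratio was 0.465, the male class II ratio 1.15 and male Lyz1 0.92. Pairing on depth and class II gave class II ratios of 0.886 and 0.954, by construction near 1, and male Lyz1 at 0.018. With positive meaning 2 or more UMIs the class II ratios were 0.394 and 0.962, 30 and 32 male genes were called, and male Fn1 was at 1.13. With 1 CPM added 248 female genes were higher. With 50 CPM added 36 and 55 female and 32 and 66 male genes were called, with at least 20 UMIs per gene 329 and 373 and 233 and 440, and with at least 200 UMIs 34 and 47 and 1 and 5. The last alternatives were chosen after seeing the data: without Lyve1-high cells the female class II ratio was 0.482, and without cells with S100a8 or S100a9 the male one was 1.23. For Fn1 and Lyz1 in the male library the cause of the reversals was not tested. No paired analysis was possible because each sex has 1 library.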
